A study of Mus musculus with 12 samples.

Results

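The 10 genes of the cartilage lineage described here were followed across cultured mouse skeletal stromal cells: the transcription factors Sox9, Sox5 and Sox6, the matrix genes Acan, Cnmd, Ucma, Matn3, Chad and Snorc, and Prg4 of the joint surface. They were taken by name from the deposited count table, with collagens left out, and make up 10 of its 53819 entries. Of the 10, 8 had enough counts to be tested, among 15698 such genes, and Chad and Snorc did not. The study set marrow-derived stromal cells (BM) beside bone-associated stromal cells (BAC), each unpurified or purified by sorting or depletion, in 4 groups of 3 libraries. All cells were wild type (WT). Neither the age nor the number of the mice is stated in the labels.

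The BM nonsorted group held whole bone marrow of hind limbs and pelvis, grown on collagen I and taken after 1 passage. The BM sorted group held such cultures after flow sorting for cells without CD31, CD45, Ly6C or F4/80 that carried CD51 and Sca-1. The BAC nondepleted group was released by collagenase I from fragments of hind-limb bone. The BAC depleted group was the same kind of preparation after magnetic removal of cells with CD45, Ly6C or F4/80. The growth medium was alpha MEM minus ascorbic acid under hypoxia, described for bone marrow and mesenchymal stem cells, and the time in culture of the BAC cells is not given. The labels do not say whether replicates came from separate animals or cultures, so p-values measure only the spread between these libraries, which may be technical.

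In cartilage, SOX9 starts the chondrocyte programme and, with SOX5 and SOX6, drives the genes of the matrix. Aggrecan (Acan) is the large chondroitin sulfate proteoglycan that holds water in the tissue, while chondromodulin (Cnmd) is an inhibitor of blood vessel growth. Ucma is secreted by immature chondrocytes, matrilin-3 (Matn3) is an adaptor protein of the matrix, chondroadherin (Chad) is a leucine-rich matrix protein that binds cells, Snorc is a small transmembrane proteoglycan of cartilage, and lubricin (Prg4) coats the joint surface and is also made by synovial lining.

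The 4 promoter windows below are shown because Acan, Cnmd and Ucma were high in BAC depleted cells and at most 2.13 CPM in BM, whereas Matn3 was the one tested gene called higher in BM. Each runs over the 250 bases before a RefSeq start on build GRCm38.p6, which is not the build of the counts. A short stretch just after the start was found in a GENCODE transcript of the gene for Ucma and Matn3, but not for Acan and Cnmd. The windows are chr7:79052976-79053225 (plus strand) for Acan, chr14:79662184-79662433 (minus strand) for Cnmd, chr2:4975872-4976121 (plus strand) for Ucma and chr12:8947679-8947928 (plus strand) for Matn3. Capitals mark every match, on either strand, to the letters searched. The core bound by SOX proteins was searched as ACAAAG and in its other common form as ACAATG. The TATA box of core promoters was searched as TATAAA. The CCAAT box was searched by the letters in its name, and the GC box bound by SP proteins was searched as GGGCGG.
Acan: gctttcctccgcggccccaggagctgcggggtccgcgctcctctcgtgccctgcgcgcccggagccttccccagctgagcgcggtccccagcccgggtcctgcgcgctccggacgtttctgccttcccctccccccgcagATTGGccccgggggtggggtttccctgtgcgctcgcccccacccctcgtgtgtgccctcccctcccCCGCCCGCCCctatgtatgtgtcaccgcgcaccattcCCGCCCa
Cnmd: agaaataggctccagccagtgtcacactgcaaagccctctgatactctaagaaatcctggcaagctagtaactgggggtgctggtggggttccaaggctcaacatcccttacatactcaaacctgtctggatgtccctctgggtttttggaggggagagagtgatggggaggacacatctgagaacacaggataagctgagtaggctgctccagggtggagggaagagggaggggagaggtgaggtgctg
Ucma: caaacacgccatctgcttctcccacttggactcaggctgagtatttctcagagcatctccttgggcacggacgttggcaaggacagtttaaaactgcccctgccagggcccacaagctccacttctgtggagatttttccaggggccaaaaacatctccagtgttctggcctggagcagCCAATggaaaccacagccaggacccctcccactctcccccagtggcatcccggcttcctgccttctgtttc
Matn3: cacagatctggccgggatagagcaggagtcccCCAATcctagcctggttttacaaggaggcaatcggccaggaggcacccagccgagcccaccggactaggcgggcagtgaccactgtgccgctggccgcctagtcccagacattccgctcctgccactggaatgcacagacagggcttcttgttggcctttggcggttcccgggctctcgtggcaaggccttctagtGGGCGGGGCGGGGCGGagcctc
Acan and Matn3 each held 1 CCAAT match and 3 GC boxes, some of which overlap one another, Ucma held 1 CCAAT match, and Cnmd held none of these motifs. Their GC content was 74.4% for Acan, 65.2% for Matn3, 56.4% for Ucma and 54.0% for Cnmd, against a median of 52.4% over all 32851 windows. Among all windows, 33.8% held CCAAT, 32.7% GGGCGG, 12.4% TATAAA and 25.2% either SOX core. RefSeq windows were found for 7 of the 10 genes, and SOX cores occurred only in those of Sox5 and Sox6. A match is a run of letters and was not shown here to be a bound site.

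Libraries held 27937709 to 32164725 counts. One library stood apart in sex-linked RNA: BAC depleted 1 had 43406 Xist counts and 0 of Ddx3y, while the other 11 had at most 16 Xist counts and at least 2484 of Ddx3y. By these RNAs its cells were of the other sex, and so did not share an animal with those 11 libraries. BAC depleted 3 gave 8.11% of its counts to Thbs1, against 1.04% to 4.18% elsewhere, and had the lowest TMM scaling factor (0.8018). Mitochondrial RNA took 1.82% to 2.62% of counts in BAC depleted libraries and 1.08% to 1.36% in the rest. Levels are given below as CPM, counts scaled to the TMM-adjusted total of the tested genes, and a gene was called changed at an adjusted p under 0.05 in edgeR's quasi-likelihood test across the 12 libraries.

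All 10 genes had counts in every BAC depleted library, though as few as 4 of Snorc, 5 of Matn3 and 10 of Chad. In BM, Sox9, Sox5, Sox6, Acan, Matn3 and Prg4 had counts in every library, Acan with 16 to 71, while Cnmd, Ucma and Snorc were at 0 in most. Both BM groups carried the cartilage collagen Col2a1 at high levels. Col2a1 was at 2940, 3940 and 3510 CPM in BM nonsorted libraries 1 to 3 and at 1000, 3500 and 3880 CPM in BM sorted. In the BAC groups it was at 110, 784 and 2480 CPM before depletion and at 1650, 3620 and 20800 CPM after it. BM sorted 2 and BAC depleted 2 were close in Col2a1 (3500 and 3620 CPM), and held 2.13 and 303 CPM of Acan.

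**Figure D1:**
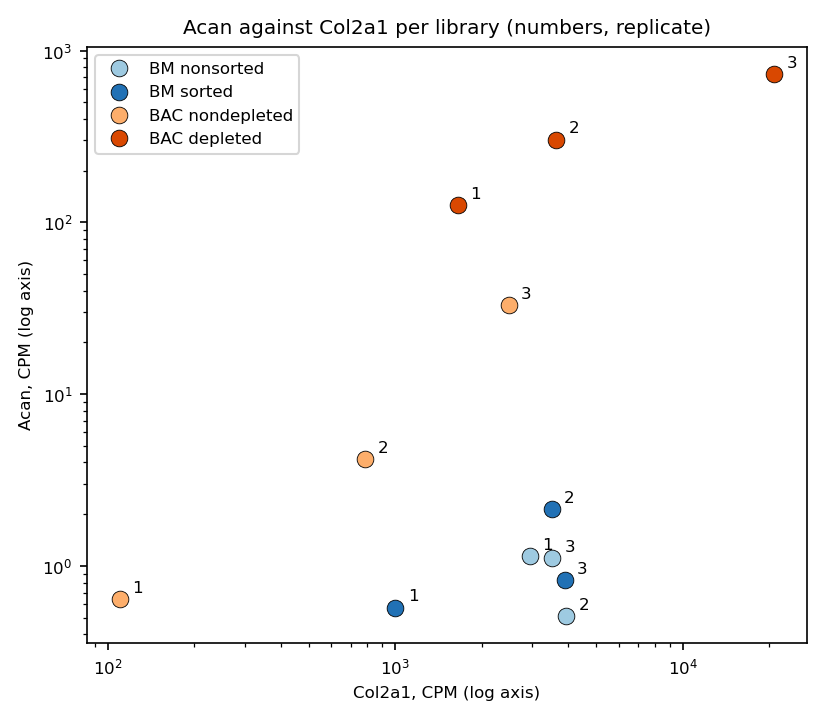
Acan against Col2a1, each in CPM on a log axis, 1 point per library with its replicate number. The 6 BM libraries lie at 0.509 to 2.13 CPM of Acan, while the 3 BAC depleted libraries lie at 126 to 729 CPM.

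Sox9 was the one of the 3 transcription factors above 20 CPM in every library. It stood at 25.6, 21.7 and 110 CPM in BM nonsorted libraries, 77.2, 49.9 and 54.1 CPM in BM sorted, 95.8, 78.3 and 95.1 CPM in BAC nondepleted and 258, 200 and 323 CPM in BAC depleted. BAC depleted libraries were above all others, and BM nonsorted libraries overlapped both BM sorted and BAC nondepleted ones, with BM nonsorted 3 above every BAC nondepleted library. Sox9 was higher after depletion by 1.54 ± 0.53 on the log2 scale (SE, n = 3 a group, edgeR adjusted p = 0.0451). It was lower in BM sorted than in BAC depleted cells, by a log2 change of -2.11 ± 0.54 (adjusted p = 0.0098), and did not pass between the unpurified groups (-0.77 ± 0.53, adjusted p = 0.285) or on sorting (0.20 ± 0.52, adjusted p = 0.933). The depletion call was lost without any 1 of BAC nondepleted 1, 2 or 3, BAC depleted 1 or 3, or BM sorted 1, 2 or 3 (adjusted p up to 0.122), and with no filter on low counts (0.133). BM nonsorted 3 decided the other 2 results: without it Sox9 rose on sorting by 1.35 (adjusted p = 0.00942) and was lower in BM nonsorted than in BAC nondepleted cells by a log2 change of -1.92 (adjusted p = 0.00209).

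Sox5 and Sox6, the SOXD partners of SOX9, separated BAC from BM libraries more sharply. Sox5 was at 0.738, 1.84 and 1.35 CPM in BM nonsorted, 1.24, 1.5 and 4.93 CPM in BM sorted, 9.73, 14.2 and 8.46 CPM in BAC nondepleted and 23.4, 28.9 and 50.0 CPM in BAC depleted libraries. Only the 2 BM groups overlapped. Sox5 rose on depletion by 1.66 ± 0.52 (adjusted p = 0.0307), was lower in BM sorted than in BAC depleted cells (-3.73 ± 0.57, adjusted p = 0.000632) and lower in BM nonsorted than in BAC nondepleted cells (-3.04 ± 0.57, adjusted p = 0.00411). The depletion call was lost without BAC nondepleted 1 (adjusted p = 0.0878), BAC nondepleted 3 (0.0925) or BAC depleted 3 (0.0921), and with no filter on low counts (0.0787). The sorting difference of 0.97 ± 0.55 did not pass (adjusted p = 0.496).

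Sox6 was at 0.769, 0.509 and 4.27 CPM in BM nonsorted, 0.201, 0.180 and 0.276 CPM in BM sorted, 29.4, 32.7 and 60.5 CPM in BAC nondepleted and 53.9, 53.0 and 167 CPM in BAC depleted libraries. Every BM library lay below every BAC library, and the BAC groups overlapped. Its BM sorted libraries, with 6, 6 and 9 counts, lay below BM nonsorted ones without overlap, yet the difference of -3.06 ± 0.96 missed the threshold (adjusted p = 0.118). BAC depleted cells exceeded BM sorted cells, a log2 change of -8.67 ± 1.02 from BAC to BM (adjusted p = 0.000154), and BAC nondepleted cells exceeded BM nonsorted cells (-4.45 ± 0.80, adjusted p = 0.0033). The depletion difference was 1.16 ± 0.68 (adjusted p = 0.205).

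**Figure D2:**
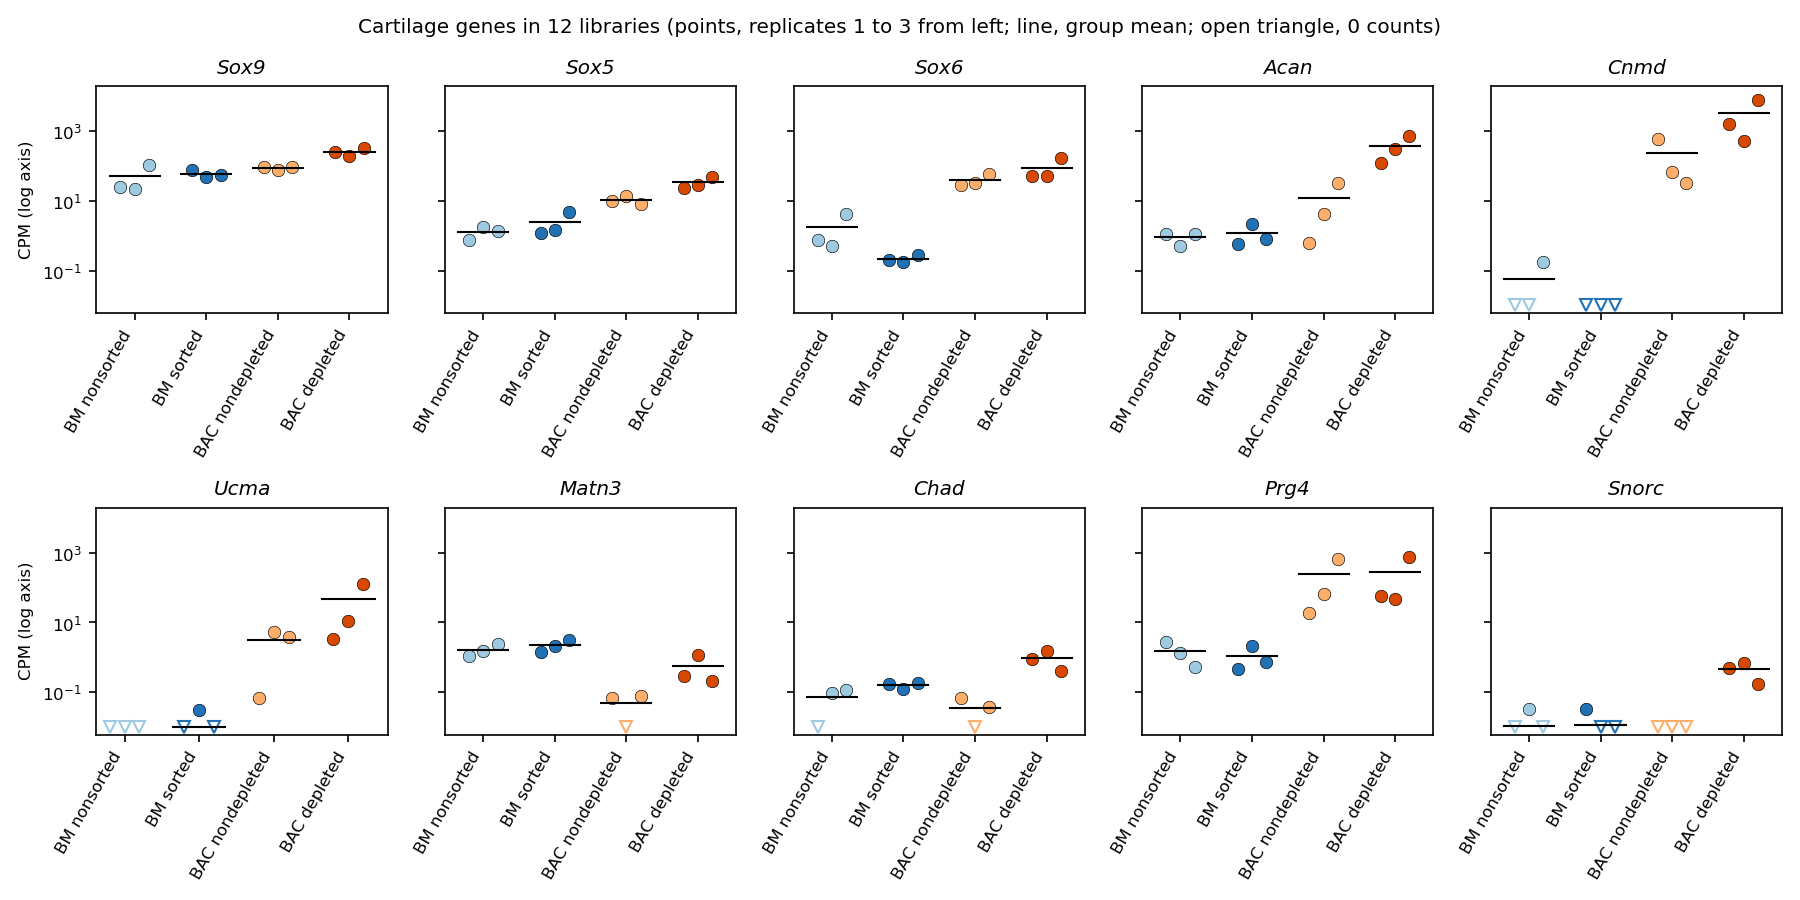
CPM on a log axis for the 10 genes in the 12 libraries, 1 panel per gene, points for replicates 1 to 3 from left in each group, lines for group means and open triangles for 0 counts. Sox9 is above 20 CPM in every library, while Cnmd and Ucma have BM libraries at 0 counts.

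Aggrecan had the largest fitted rise on depletion of the 8 tested genes. Acan was at 0.638, 4.18 and 32.9 CPM in BAC nondepleted libraries and at 126, 303 and 729 CPM in BAC depleted ones, which do not overlap, and at 0.509 to 2.13 CPM in the 6 BM libraries. The rise was 4.95 ± 1.23 on the log2 scale (adjusted p = 0.0107) and remained called in each of the 12 fits that left out 1 library (4.09 to 7.33). A fit to the 2 BAC groups alone lost it (adjusted p = 0.0679). Acan was lower in BM sorted than in BAC depleted cells by a log2 change of -8.34 ± 1.46 (adjusted p = 0.00126). The unpurified groups overlapped, since BAC nondepleted 1 fell among the BM libraries, and their difference of -3.76 ± 1.25 (adjusted p = 0.0432) was -1.37 without BAC nondepleted 3 (adjusted p = 0.306). That call was also lost without any 1 of BM nonsorted 1, 2 or 3, BM sorted 1, 2 or 3, or BAC nondepleted 2. Sorting left a difference of 0.36 ± 1.28 (adjusted p = 0.956).

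Chondromodulin had the highest mean of the 10 genes in BAC depleted cells and was at or near 0 in marrow. Cnmd had 50369, 14610 and 189598 counts in BAC depleted libraries (1600, 517 and 7900 CPM) and 18079, 1855 and 841 counts in BAC nondepleted ones (607, 67.4 and 32.1 CPM). BM nonsorted libraries held 0, 0 and 6 counts and BM sorted libraries none. The BAC groups overlapped, and the depletion difference of 3.83 ± 1.39 did not pass (adjusted p = 0.0611), although it did without BAC nondepleted 1 (6.07, adjusted p = 0.019) or without BAC depleted 2 (4.33, adjusted p = 0.0387). Cnmd was at least 97100-fold lower in BM sorted than in BAC depleted cells, taking the floor of 3 counts over a group (adjusted p = 0.000971). Between the unpurified groups the log2 change was -11.82 ± 2.15 (adjusted p = 0.0058).

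Ucma, a marker of immature growth-plate chondrocytes, had 105, 315 and 3041 counts in BAC depleted and 2, 148 and 100 counts in BAC nondepleted libraries, against 1 count in all BM libraries together. The BAC groups overlapped and their difference of 3.93 ± 1.5 did not pass (adjusted p = 0.0723), though it did without BAC depleted 1 (4.48, adjusted p = 0.037). Ucma was lower in BM sorted than in BAC depleted cells, by a ratio of 3960 with a 95% counting interval of 710 to 156000 (adjusted p = 0.00645). It was at least 97.9-fold lower in BM nonsorted than in BAC nondepleted cells, where the adjusted p was 0.0505. Scaling by DESeq2 size factors or upper quartiles brought it to 0.0497 and 0.0489. Counting intervals and floors cover counting error only.

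Matn3 went the other way between BM and BAC. It had 36, 47 and 80 counts in BM nonsorted libraries and 42, 71 and 100 counts in BM sorted ones (1.11 to 3.06 CPM), against 2, 0 and 2 counts in BAC nondepleted and 9, 34 and 5 counts in BAC depleted libraries. All BM libraries but BM nonsorted 1 lay above all BAC libraries, BM nonsorted 1 falling below BAC depleted 2 at 1.20 CPM. Matn3 rose on depletion by 3.46 ± 0.91 (adjusted p = 0.0134), was higher in BM sorted than in BAC depleted cells by 1.95 ± 0.68 (adjusted p = 0.0366) and higher in BM nonsorted than in BAC nondepleted cells by 4.99 ± 0.89 (adjusted p = 0.0031). The depletion call remained in each fit without 1 library (2.29 to 3.88) but not in the fit to the BAC groups alone (adjusted p = 0.0683). The call between the purified groups was lost without any 1 of BM nonsorted 2, BM sorted 2 or 3, or BAC depleted 1 or 3 (adjusted p up to 0.118), and in the fit to those 2 groups alone (0.0823). Sorting left a difference of 0.42 ± 0.64 (adjusted p = 0.865).

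Chad and Snorc were sparse and were seen mainly after depletion. Chad had 29, 42 and 10 counts in BAC depleted and 2, 0 and 1 counts in BAC nondepleted libraries, a ratio of 26.9 (95% counting interval 8.90 to 133). Snorc had 16, 19 and 4 counts in BAC depleted libraries and none in BAC nondepleted ones, at least 13-fold higher, and a single count in each BM group. For both genes BAC depleted libraries lay above those of every other group. Chad was at 0, 0.0954 and 0.117 CPM in BM nonsorted and 0.168, 0.120 and 0.184 CPM in BM sorted libraries, where the nearest libraries held 4 counts each and the test without a filter on low counts gave 1.14 (adjusted p = 0.781). Snorc was lower in BM sorted than in BAC depleted cells by a ratio of 44.6 (7.55 to 1810). Chad had 7 counts in BM nonsorted and 3 in BAC nondepleted libraries, a ratio of 1.99 whose interval includes 1 (0.453 to 11.9). The edgeR test without a filter on low counts gave 0.87 there (adjusted p = 0.653). With no filter on low counts, the rise on depletion passed for Chad (4.53, adjusted p = 0.00222) and for Snorc (adjusted p = 0.00411).

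Lubricin was high in both BAC groups and low in both BM groups. Prg4 was at 18.7, 66.6 and 656 CPM in BAC nondepleted libraries and 57.4, 48.2 and 737 CPM in BAC depleted ones, so that library 3 of each group stood far above the other two, while the 6 BM libraries lay at 0.470 to 2.77 CPM. The depletion difference was 0.18 ± 1.30 (adjusted p = 0.922) and moved from -2.23 to 2.72 as single libraries were left out. Prg4 was lower in BM sorted than in BAC depleted cells by a log2 change of -7.98 ± 1.80 (adjusted p = 0.00508), and lower in BM nonsorted than in BAC nondepleted cells by -7.33 ± 1.75 (adjusted p = 0.0117). Sorting left a difference of -0.46 ± 1.54 (adjusted p = 0.953).

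**Figure D3:**
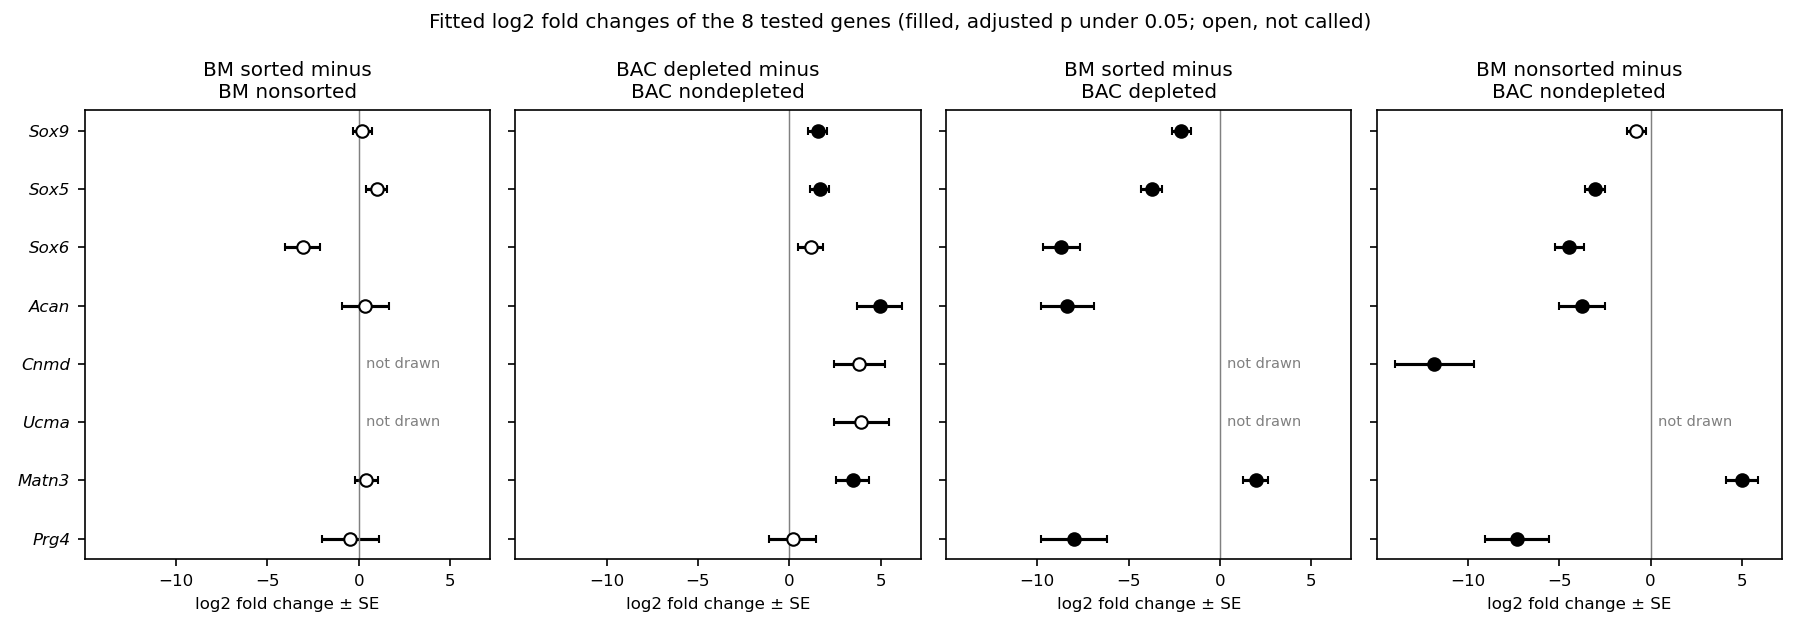
Fitted log2 fold change with its SE for the 8 tested genes in the 4 comparisons, filled where the adjusted p was under 0.05 and not drawn where a group held 3 counts or fewer. After depletion the filled points are Sox9, Sox5, Acan and Matn3, and Matn3 alone lies to the right in both BM against BAC panels.

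Counted over the 8 tested genes, depletion gave 4 rises and 0 falls, in a comparison that called 37.3% of all genes (17.4% as higher and 19.9% as lower). The purified groups gave 7 genes lower and 1 higher in BM, where 47.4% of all genes were called (24.6% lower and 22.9% higher). The unpurified groups gave 5 lower and 1 higher, where 31.7% were called (16.8% lower and 14.9% higher). Sorting called 0 of the 8, where 6.23% of all genes were called (6.06% lower and 0.166% higher). One of them, Sox6, had an unadjusted edgeR p under 0.05, and DESeq2's Wald test called that 1. Since a gene can pass the filter through the group where it is high, these counts describe the 8 genes and support nothing further. Without BAC depleted 1, depletion called 4 genes (Acan, Sox5, Matn3 and Ucma) and the purified comparison 7, Matn3 being lost. Without BAC depleted 3, depletion called 2 (Acan and Matn3) and the purified comparison 7, again without Matn3. Each group enters 2 of these 4 comparisons, so they share libraries. BM and BAC cells differed in tissue, in preparation and, once purified, in the markers selected on, and these cannot be told apart. In bulk RNA, fewer cells of a type and less RNA per cell cannot be told apart.

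Whether sorting and depletion moved a gene differently was tested as the difference of the 2 effects, sorting minus depletion. None of the 8 genes passed, where 8.06% of all genes did (5.08% with a higher and 2.99% with a lower value), and edgeR gave 3 an unadjusted p under 0.05. Sox6 was nearest at -4.22 ± 1.18 (adjusted p = 0.0555), then Matn3 at -3.04 ± 1.11 (0.119) and Acan at -4.59 ± 1.71 (0.125). DESeq2's Wald test called 2, Sox6 (-4.23, adjusted p = 0.00109) and Acan (-4.58, adjusted p = 0.0343). Without BAC nondepleted 3, Acan passed in edgeR (-6.97, adjusted p = 0.0236), and without BAC depleted 2, Sox6 did (-4.50, adjusted p = 0.0493).

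The 3 BAC depleted libraries were not alike in their cartilage RNA. Of the 10 genes, 7 were highest among the BAC libraries in BAC depleted 3, and the other 3 (Matn3, Chad and Snorc) were highest in BAC depleted 2. The 10 genes summed to 2130, 1160 and 10000 CPM in BAC depleted libraries 1 to 3, of which Cnmd alone made 1600, 517 and 7900 CPM. The 10 osteoblast markers summed to 4540, 693 and 378 CPM in the same libraries, of which Spp1 made 3670, 417 and 207 CPM. The 7 tendon markers summed to 8550, 5240 and 10900 CPM. Of these, Fmod, which is also among the other cartilage matrix genes below, made 2900 to 7590 CPM and Egr1 339 to 3250 CPM. The 10 synovial and superficial cartilage markers summed to 29.6, 62.0 and 224 CPM, of which Hbegf made 11.7 to 132 CPM. Within BAC nondepleted libraries, Acan ran from 0.638 to 32.9 CPM while Cnmd ran in the opposite order, from 607 to 32.1 CPM. The part of these other cells in the spread was not tested.

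**Figure D4:**
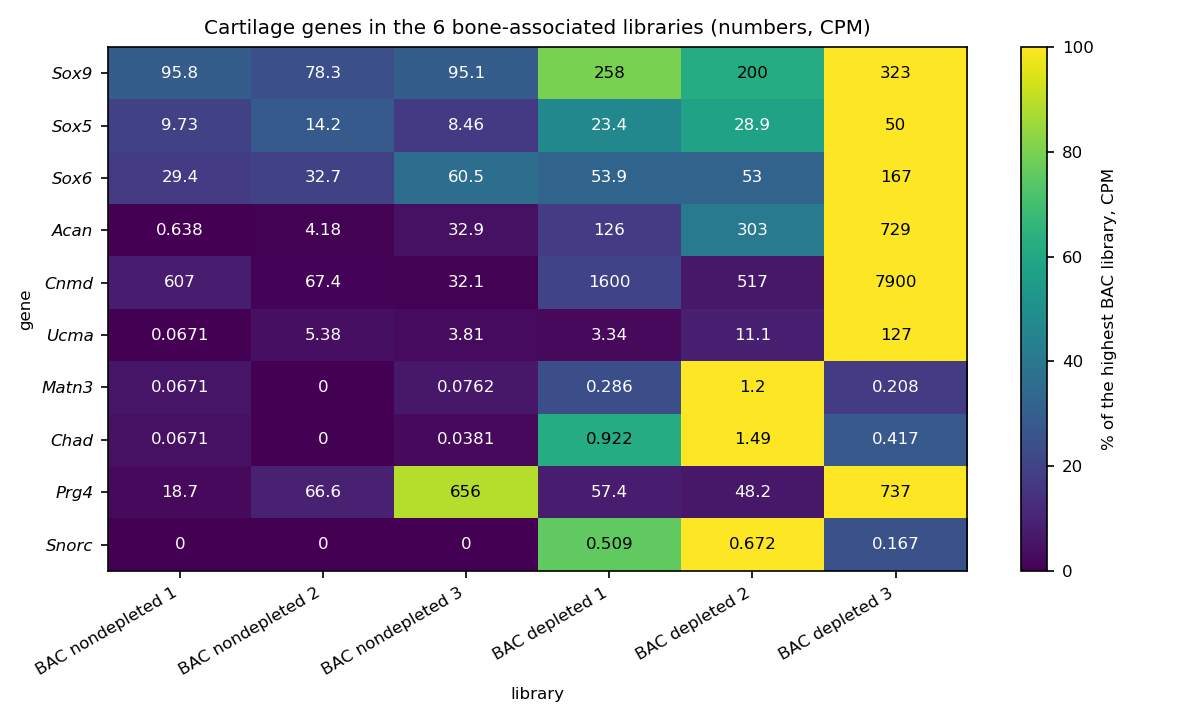
Levels of the 10 genes in the 6 BAC libraries, coloured as a percentage of the highest BAC library for that gene and printed in CPM. BAC depleted 3 is the highest column for 7 genes, and Prg4 is also high in BAC nondepleted 3 (656 CPM).

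Per kilobase of merged exons (GENCODE M21 lengths), Cnmd led in BAC depleted cells at 1810 ± 2160 CPM per kb (SD, n = 3). Prg4 (65.6 ± 92.3), Sox9 (63.0 ± 14.9), Ucma (53.3 ± 78.4) and Acan (51.7 ± 41.5) followed, in an order that their spread does not resolve. Sox6 (6.16 ± 4.42) and Sox5 (2.37 ± 0.98) came next, and Snorc (0.622), Chad (0.561) and Matn3 (0.187) were lowest. In BM sorted cells the order on this scale was Sox9 (14.6 ± 3.56), Matn3 (0.730 ± 0.274) and Prg4 (0.257 ± 0.204), and Sox5 came next at 0.178 CPM per kb.

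The surrounding genes of the pathway were read from 6 lists, some of which share genes. The regulators (14 genes, 10 tested) gave 3 rises and 2 falls on depletion. Fgfr3, the receptor that restrains growth-plate chondrocytes, rose by 3.91 ± 0.61 (adjusted p = 0.000847) and Nkx3-2, a repressor of hypertrophy, by 3.35 ± 0.58 (0.00153). Runx3 fell by 1.55 ± 0.35 (0.00616) and Mef2c, a driver of hypertrophy that macrophages also express, fell by 0.97 ± 0.29 (0.0259). The purified groups gave 5 regulators lower in BM and 1 higher: Mef2c (-4.00 ± 0.34) and Fgfr3 (-3.12 ± 0.59) changed the most among those lower, and Runx3 was higher (3.85 ± 0.36). Between the unpurified groups 2 were lower, Trps1 (-2.40 ± 0.40) and Mef2c (-1.13 ± 0.30), and Runx3 was higher (2.30 ± 0.34). Sorting called only Mef2c (-3.85 ± 0.33, adjusted p = 2.7e-05). The shares of regulators called were 50% on depletion against 37.3% of all genes and 60% against 47.4% between the purified groups. They were 30% against 31.7% between the unpurified groups and 10% against 6.23% on sorting.

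Other cartilage matrix genes (19 genes, 17 tested) gave 6 rises and no fall on depletion (35.3% called, against 37.3% of all genes and 17.4% as rises), with a median log2 change of 1.76 against 0.05 over all genes. Mia, a secreted cartilage protein, had no count in BAC nondepleted libraries and was at least 40.2-fold higher, and Cytl1, a cytokine-like product of chondrocytes, rose by 6.35 ± 1.52 (adjusted p = 0.0126). Between the purified groups 14 were lower in BM and 1, Cilp2, was higher (1.99 ± 0.65, adjusted p = 0.0282). The median was -4.79, or -4.38 with genes at 3 counts or fewer in a group set at their bound or ratio, against -0.02 over all genes. Scrg1 was at least 841-fold lower and Cytl1 at least 603-fold lower. Unpurified BM had 7 lower, among them Scrg1 (at least 161-fold) and Cilp (-10.07 ± 1.86), and Cilp2 higher (2.31 ± 0.68). Sorting called Matn1 alone, with 0 counts after and 21 before, at least 6.83-fold lower. The shares of matrix genes called were 88.2% between the purified groups against 47.4% of all genes. They were 47.1% against 31.7% between the unpurified groups and 5.88% against 6.23% on sorting. Matn1, Matn4 and Chadl are also on the list of relatives below, and Matn4 and Chadl are among the 6 rises on depletion.

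The cartilage collagens (8, all tested) gave 4 rises on depletion, led by Col9a1 (7.03 ± 0.83, adjusted p = 0.000149) and Col9a3 (5.88 ± 0.86, 0.000559), chains of the collagen IX that decorates cartilage fibrils. Of the 8 collagens, 50% were called, against 37.3% of all genes, and their median was 3.05, against 0.05 over all genes. Between the purified groups 4 were lower in BM (50% called, against 47.4% of all genes). Among them were Col9a1 (ratio 1230, 95% counting interval 422 to 5990) and Col9a3 (-6.74 ± 0.90). None of the 8 was called between the unpurified groups or on sorting, against 31.7% and 6.23% of all genes. In both comparisons 0 had an unadjusted edgeR p under 0.05. Col2a1, the most abundant, gave 1.62 ± 1.09 (adjusted p = 0.276) and -0.31 ± 1.06 (0.954) there.

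Chondroitin sulfate synthesis, which builds the chains that aggrecan carries, had a share of genes called below that of all genes in each comparison (20 genes, all tested). The shares were 30% on depletion against 37.3% of all genes, 35% against 47.4% between the purified groups, 20% against 31.7% between the unpurified groups and 5% against 6.23% on sorting. Depletion gave 4 rises, among them Chst11 (1.29 ± 0.33) and Papss2 (1.29 ± 0.46), and 2 falls, Chst3 (-3.34 ± 0.47) and Xylt2 (-1.46 ± 0.17), with a median of 0.37. The purified groups gave 3 higher in BM, led by Chst13 (3.26 ± 0.86) and Chst15 (3.05 ± 0.63), and 4 lower, led by Xylt1 (-2.82 ± 0.64) and Chst7 (-1.81 ± 0.34). The unpurified groups gave 2 higher, Chst15 (3.75 ± 0.66) and Chpf (1.11 ± 0.22), and 2 lower, Chst7 (-1.28 ± 0.33) and Csgalnact2 (-0.76 ± 0.16). Sorting called only Chst3 (-2.84 ± 0.46).

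Relatives of the 10 genes (12, of which 10 tested) included the hyaluronan-binding proteoglycan Vcan, kin to aggrecan. Vcan was higher in BM than in BAC between the purified and the unpurified groups, by 2.85 ± 0.48 (adjusted p = 0.00108) and 3.40 ± 0.50 (0.00145). On depletion 3 rose, led by Matn4 (4.54 ± 1.49) and Chadl (3.88 ± 0.30), both already counted with the matrix genes, and none fell. Between the purified groups 4 were lower in BM, among them Matn1 (at least 13.4-fold) and Matn4 (-4.79 ± 1.51), and between the unpurified ones Sox13 was also higher (1.26 ± 0.35). Of the relatives, 30% were called on depletion, against 37.3% of all genes. The shares were 50% against 47.4% between the purified groups and 20% against 31.7% between the unpurified groups. Of 10 synovial and superficial cartilage genes, 9 tested, depletion raised Erg alone (4.95 ± 1.26), 11.1% called against 37.3% of all genes. Erg (-4.20 ± 1.20) and Htra4 (-2.89 ± 0.87) were among 3 lower in purified BM, and Tspan15 (-2.85 ± 0.88) was the 1 lower in unpurified BM. These calls were 33.3% and 11.1% of the 9, against 47.4% and 31.7% of all genes. Sorting called none of the 9, with 0 at an unadjusted p under 0.05, and Hbegf, the most abundant, gave -0.20 ± 0.80.

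**Figure D5:**
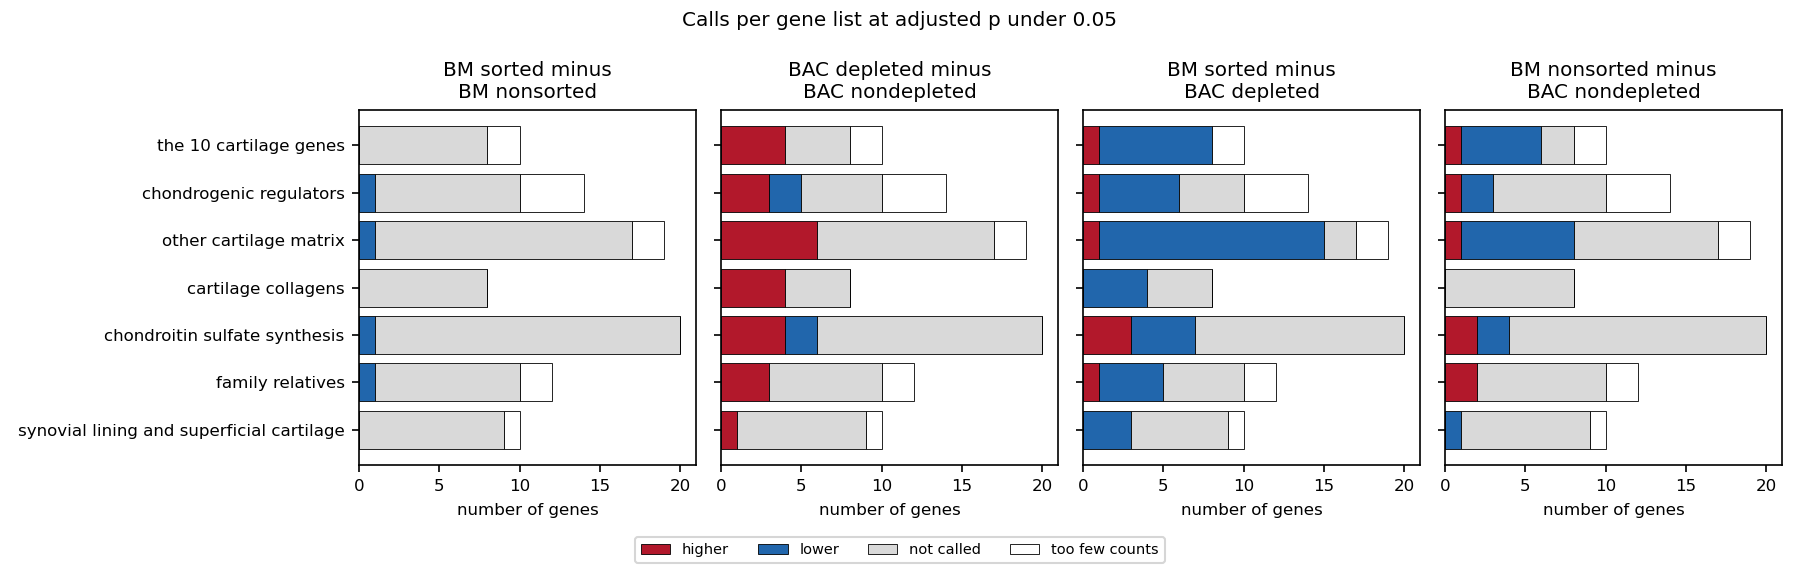
Number of genes higher, lower, not called or with too few counts to test, for the 10 cartilage genes and the 6 related lists in the 4 comparisons. After depletion the 10 cartilage genes have 4 rises and the other matrix list 6, and in the purified comparison the matrix list has 14 genes lower in BM.

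Markers of other cells were read in the same groups. The 10 macrophage markers summed to 12600 to 14200 CPM in BAC nondepleted and 12.5 to 64.5 CPM in BAC depleted libraries, with 4 of the 10 at 0 counts after depletion. They summed to 4900 to 5520 CPM in BM nonsorted and 6.29 to 8.70 CPM in BM sorted libraries. The 8 mitosis genes summed to 319 to 388 CPM before depletion and 22.2 to 97.8 CPM after it. The 10 osteoblast markers (9 tested) gave 5 rises on depletion, Sp7, Alpl, Bglap2, Ibsp and Dmp1, and no fall. That was 55.6% called, against 37.3% of all genes, with a median log2 change of 2.16 against 0.05 over all genes. Bglap2 had 0 counts in BAC nondepleted and 26 over the BAC depleted libraries, at least 8.65-fold higher. Ibsp ran from 4.98 to 38.6 CPM before depletion and from 37.7 to 725 CPM after it, so its libraries overlapped. The osteoblast markers summed to 4190 to 7010 CPM in BAC nondepleted and 378 to 4540 CPM in BAC depleted libraries. That level was carried by Spp1, which macrophages also make and which was not called (-1.96 ± 0.90, adjusted p = 0.114). Tendon markers summed to 2950 to 6690 and 5240 to 10900 CPM, and adipocyte markers to 234 to 264 and 42.5 to 841 CPM. Of the 7 tendon markers, all tested, depletion called 0. The 7 adipocyte markers (5 tested) gave 3 rises on depletion, Adipoq, Plin1 and Pparg, and no fall (60% called, against 37.3% of all genes). Adipoq held 3 counts and Plin1 5 counts over the BAC nondepleted libraries. The part of these cells in the cartilage gene results was not tested.

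By Pearson correlation of log2 CPM over the 12 libraries, the genes nearest to Sox9 were Rbbp9 (0.953), Efna2 (0.952) and Ttc23 (0.952). Those nearest to Acan were Ric3 (0.971), Tcta (0.969) and Tsnax (0.969). Those nearest to Prg4 were Rab17 (0.960), Plaat1 (0.958) and Hapln1 (0.957), the link protein that ties aggrecan to hyaluronan. Rab17 had a mean of 0 CPM in both BM groups and only 0.464 and 0.549 CPM in BAC nondepleted and BAC depleted cells. Hapln1 had 0.0523 and 0.03 CPM in BM nonsorted and BM sorted cells, against 33.6 and 160 CPM in the BAC groups. The libraries fall into 4 groups that each share a preparation, so these values are descriptions.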

How the data were processed

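RNA from 12 libraries of cultured wild-type mouse stromal cells (50 ng of total RNA each, Clontech low-input kit) was sequenced, per the labels' protocols. The authors deposited 1 table of raw counts per gene symbol. Per the submitters' processing notes, STAR 2.7.9a, featureCounts (Subread 2.0.1) and MultiQC 1.7 were used with build GRCm39. The annotation release and strand setting: not given in the sources used here. Groups were taken from the sample labels.

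All 12 libraries entered one edgeR 4.0.16 quasi-likelihood fit (robust, TMM, filterByExpr, 8 residual degrees of freedom, R 4.3.3, limma 3.58.1) with a mean per group. P-values were Benjamini-Hochberg adjusted over 15698 genes, and calls were made at 0.05. SE is the log2 change divided by the root of F. A group at 0 counts was set to a floor of 3 counts over the group, and ratios with 1 to 3 counts have exact 95% intervals. The code was tested on simulated data. Alternatives were DESeq2 1.42.0, other scalings and filters, a replicate block, fits to the groups compared, and leaving out each library. Lengths came from GENCODE M21 and promoters from RefSeq on GRCm38.p6. The 10 genes and the lists were chosen with earlier results of these data known. All 10 genes are named in each comparison, with up to 2 called risers and 2 fallers of largest fitted change per related list, or its most abundant gene where none was called, and the 3 genes most correlated with Sox9, Acan and Prg4. Other genes were named after their values were seen.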

Additional observations from a re-analysis of the deposited data

Results flagged for a closer look

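For 11 of 77 tested cartilage-related genes, none of them among the 10 cartilage genes, the effect of sorting differed from that of depletion in edgeR's test of the difference (adjusted p under 0.05). That is 14.3%, where 8.06% of all genes were called (5.08% higher and 2.99% lower). The difference, sorting minus depletion on the log2 scale, was negative for 10: -8.46 for Col9a1, -6.47 for Col9a3, -5.93 for Matn1, -4.23 for Col11a2, -3.75 for Chadl, -3.24 for Xylt1, -2.88 for Mef2c, -2.19 for Prelp, -2.16 for Col27a1 and -2.13 for Sox13. It was positive for Xylt2 at 1.01. Matn1 had 0 counts in BM sorted libraries, so its fitted size depends on the prior count. Col9a1 had 9 counts over the BM nonsorted and 3 over the BM sorted libraries, so its sorting effect rests on few counts. That ratio was 2.93 (95% counting interval 0.731 to 16.8).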

How the results depend on the processing

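The number of the 8 tested genes called on sorting was 0, and was 1 with DESeq2's Wald test (Sox6) and 0 to 1 as single libraries were left out. On depletion it was 4, but 2 in the fit to the 2 BAC groups alone, and 2 to 5 as libraries were left out, with 2 without BAC nondepleted 3 and 2 without BAC depleted 3. Calls over all genes went from 5863 to 3457 in the fit to the BAC groups alone, to 4807 without BAC nondepleted 3 and to 5899 without BAC depleted 3. Between the purified groups it was 8 and stayed at 7 to 8 as libraries were left out, and between the unpurified groups it was 6 and ran from 5 to 7. For the difference of effects it was 0, became 2 with DESeq2's Wald test, and ran from 0 to 1. Fits without a library kept the same tested genes, and a group left with 2 libraries shared the spread of the rest. Directions turned only for values that were not called: as libraries were left out, the sorting change ran from -0.17 to 1.35 for Sox9, -0.38 to 0.68 for Acan and -1.31 to 0.29 for Prg4, the depletion change of Prg4 from -2.23 to 2.72, and the difference of effects from -3.18 to 1.79 for Prg4 and from -3.93 to 0.60 for Ucma. The cause was not tested. Of the single-gene values under all alternatives, 688 kept direction and side of the threshold, 32 lost a call, 21 gained one and 11 turned. Counts of 0 to 6 a library limit Chad, Snorc, Cnmd and Ucma in BM.

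A replicate block by label number gave 1 call on sorting (Sox6, -2.76) and 5 on depletion (Ucma added, 3.62, adjusted p = 0.0304). It gave 8 between the purified groups, 6 between the unpurified groups and 1 for the difference of effects (Sox6, -3.74, adjusted p = 0.0182). Acan between the unpurified groups was -2.81 with it (adjusted p = 0.089). Deviations of same-numbered libraries correlated at -0.223 to 0.215 for sorting and 0.0439 to 0.237 for depletion, so the numbers were not taken to pair the libraries. In no comparison did every library correlate best with its own number. BAC depleted 1 and BAC nondepleted 1 also differed in Xist (43406 and 2 counts) and Ddx3y (0 and 4111 counts). By these RNAs, those same-numbered libraries did not come from the same animal.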
